A study of Homo sapiens with 12 samples.

Results

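The 33 genes described here code for proteins that fold, inspect, export or dispose of proteins in the endoplasmic reticulum (ER), together with the sensor ERN1 and the transcription factor XBP1, which adjust that machinery to its load. They were taken by gene symbol from a table of 30017 symbols, and all 33 were among the 16010 symbols that held enough counts to be tested. By role they comprise 9 chaperones and chaperone partners, 5 disulfide enzymes, 3 members of the lectin folding cycle, 9 members of ER-associated degradation, 5 members of translocation and export, and the pair ERN1 and XBP1. PolyA RNA was sequenced from THP-1, an established human line of monocytic acute myeloid leukaemia grown in suspension. The wild type and the IRAK4 knockout both came through electroporation with Cas9, without or with a guide RNA to IRAK4, and were cloned from single cells, and each was then kept for 12 h in 50 nM CC-885 or in the same volume of DMSO. IRAK4 is the kinase that relays signals from Toll-like and interleukin-1 receptors. CC-885 is a small molecule that recruits the translation termination factor GSPT1 to the cereblon ubiquitin ligase for degradation. The 4 groups hold 3 libraries each. The labels give neither the number of clones of each genotype nor whether replicates were separate cultures, so effects of the knockout and of the clone cannot be told apart, and p-values measure only the spread between these libraries.

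Proteins that enter the secretory pathway pass through the SEC61 channel, are folded by Hsp70 and Hsp90 family chaperones and by lectin chaperones, and receive disulfide bonds from protein disulfide isomerases. Proteins that fail to fold are drawn back to the cytosol and ubiquitinated, a route called ER-associated degradation. When unfolded proteins accumulate, 3 membrane sensors start the unfolded protein response: IRE1 (gene ERN1), which splices XBP1 mRNA into the form that codes for an active transcription factor, ATF6, and PERK (gene EIF2AK3), which slows translation and raises ATF4. XBP1 and ATF6 switch on many of the chaperone and degradation genes described here. Counts per gene do not separate spliced from unspliced XBP1 mRNA.

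XBP1 and ATF6 act on many of these genes through the ER stress response element (ERSE), written CCAAT, 9 bases, CCACG, and through the shorter ERSE-II, written ATTGG, 1 base, CCACG. RefSeq promoter windows (GRCh38.p14) of 250 bases before and 50 bases after the transcription start were at hand for 29 of the 33 genes, and both strands were searched. ERSE was present in 7 of the 29 (24.1%), namely HSPA5, HSP90B1, PDIA6, CRELD2, CALR, CANX and XBP1, against 0.0916% of all 27305 genes with a window. ERSE-II was present in 3 of the 29 (10.3%), namely HYOU1, SDF2L1 and HERPUD1, against 0.0696% of all genes. The related core TGACGTG was present in HYOU1, DNAJC10 and SEC61A1 (10.3%, against 2.4% of all genes), and the ATF4-type composite TGATGNAA was present in HERPUD1 alone (3.45%, against 4.46%). Of the 10 genes with ERSE or ERSE-II, 7 were lower under CC-885 in both genotypes, while HSPA5, HERPUD1 and XBP1 were higher in wild type, as detailed below. Among all 33 genes, 18 were lower in both genotypes, and the share of all genes lower in both was not counted. A link between element and direction was not tested. The stretches before the start of 6 of them are shown because genes with the same element moved in opposite directions under CC-885 in wild type. With ERSE, HSPA5 and XBP1 rose and PDIA6 and CALR fell. With ERSE-II, HERPUD1 rose and SDF2L1 fell. They are written 5′ to 3′ on the strand of the gene, up to the RefSeq start in HSPA5 and, in the others, up to the first base that GENCODE draws as an exon of the gene, and capitals mark the matched letters of ERSE, ERSE-II and, in HERPUD1, TGATGNAA as well.
HSPA5: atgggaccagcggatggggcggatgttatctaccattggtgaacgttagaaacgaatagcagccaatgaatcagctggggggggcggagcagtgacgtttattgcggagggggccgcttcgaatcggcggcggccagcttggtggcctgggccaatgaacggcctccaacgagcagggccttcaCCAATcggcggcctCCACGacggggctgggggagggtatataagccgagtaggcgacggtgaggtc
SDF2L1: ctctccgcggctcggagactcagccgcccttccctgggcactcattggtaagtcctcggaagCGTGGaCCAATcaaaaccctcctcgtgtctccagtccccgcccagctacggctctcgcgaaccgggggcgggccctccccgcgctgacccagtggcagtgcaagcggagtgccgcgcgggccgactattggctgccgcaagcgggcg
PDIA6: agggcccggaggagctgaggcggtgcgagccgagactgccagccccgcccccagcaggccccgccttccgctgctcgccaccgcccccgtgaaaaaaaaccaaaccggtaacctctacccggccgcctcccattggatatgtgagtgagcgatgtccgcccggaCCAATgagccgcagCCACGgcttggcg
CALR: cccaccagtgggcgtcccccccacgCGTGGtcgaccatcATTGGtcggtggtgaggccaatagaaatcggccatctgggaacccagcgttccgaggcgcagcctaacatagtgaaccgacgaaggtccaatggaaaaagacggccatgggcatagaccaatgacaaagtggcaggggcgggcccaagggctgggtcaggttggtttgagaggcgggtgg
HERPUD1: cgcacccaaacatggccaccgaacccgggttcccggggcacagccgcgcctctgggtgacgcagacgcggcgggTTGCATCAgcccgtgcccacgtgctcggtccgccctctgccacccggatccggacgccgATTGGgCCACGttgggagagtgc
XBP1: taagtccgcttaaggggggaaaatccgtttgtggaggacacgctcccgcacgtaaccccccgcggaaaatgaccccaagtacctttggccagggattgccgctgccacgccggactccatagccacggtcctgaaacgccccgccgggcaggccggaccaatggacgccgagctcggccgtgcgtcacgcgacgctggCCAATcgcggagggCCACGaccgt
The HSPA5 stretch is chr9:125241344-125241593 (minus strand) with its element beginning 66 bases before the start, and that of SDF2L1 is chr22:21642052-21642260 (plus strand) with the element 188 bases before the start and reversed. The PDIA6 stretch, chr2:10812845-10813035 (minus strand), belongs to 1 of its 2 windows and lies within the gene as GENCODE draws it, with the element 86 bases before that start. The CALR stretch is chr19:12938359-12938577 (plus strand) with a reversed element 225 bases before the start, and the HERPUD1 stretch is chr16:56931892-56932047 (plus strand) with ERSE-II at 117 bases and the reversed TGATGNAA at 176 bases. The XBP1 stretch, chr22:28800598-28800819 (minus strand), belongs to 1 of its 2 windows and has the element 52 bases before the start. A match describes letters in a window and was not tested for use by any factor.

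Totals ranged from 46903984 to 56675539 counts per library. Levels below are CPM, a gene's share of the library's counts on a fixed scale after TMM scaling of library sizes. Changes are on the log2 scale, each ± its SE, from a quasi-likelihood fit in edgeR to all 12 libraries. P-values were adjusted over all 16010 genes, and calls were made at an adjusted p under 0.05. The SE was not given by the fit and was taken as the absolute change divided by the square root of its F statistic. The 3 untreated wild-type libraries held IRAK4 at 53.9, 50.9 and 51.6 CPM and the untreated knockout libraries at 7.28, 8.72 and 8.78 CPM. With CC-885 the wild type held 65.4, 69.4 and 83.6 CPM and the knockout 31.7, 30.8 and 29.6 CPM, so every knockout library was below every wild-type library. GSPT1 mRNA in untreated libraries was 214, 231 and 225 CPM for wild type against 170.3, 189.5 and 181 CPM for knockout. With CC-885 those figures were 253, 259.6 and 248 CPM against 295, 299.8 and 299 CPM, and they say nothing of the protein. Wild-type CC-885 replicate 3 stood apart from its group: its counts differed from those of the other pair with chi-square values of 66.6 and 81.5 for each degree of freedom, where that pair differed by 5.33. It is the only library of its group whose name begins with 52 instead of 51, a prefix whose meaning the labels do not give. Summed over 14 genes of the monocytic leukaemia lineage, in CPM of the library total, levels were 4594 to 4712 in wild type and 7297 to 8718 in knockout under DMSO, and 3115 to 3173 and 3215 to 3254 under CC-885. The highest levels among the 14 over all 12 libraries were reached by ELANE (237 to 2207 CPM), LYZ (381 to 2082 CPM) and CTSG (151 to 1749 CPM). The sum therefore weighs these genes most and does not show whether the other markers moved with them. The defining markers CD3E, CD3G, MS4A1, KRT19 and CDH5 had no count in any library, and the epithelial, stromal and endothelial sum of 92.5 to 460.1 CPM was nearly all PECAM1 (91.2 to 458 CPM), which myeloid cells also express. The sums reached 20.9 CPM for T and NK cell markers, of which up to 20.7 CPM was NKG7, 8.69 CPM for B and plasma cell markers and 0.673 CPM for erythroid markers.

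Under CC-885 the ER folding genes went both ways, as did all genes tested. Their share of lower calls was above that of all genes in both genotypes. In wild type 13 of 33 (39.4%) were higher and 18 (54.5%) lower, in a background where 35.7% of all genes tested were higher and 36.6% lower. In knockout 10 (30.3%) were higher and 19 (57.6%) lower, against 38.9% and 40% of all genes. Their median log2 change was -0.22 in wild type and -0.35 in knockout, against -0.034 and -0.033 for all genes. These changes are relative to the bulk of the transcriptome, and fewer cells of a type and less RNA per cell cannot be told apart in bulk samples. Without wild-type CC-885 replicate 3 the wild-type counts were 14 higher and 18 lower. Called in the same direction in both genotypes, whose libraries are disjoint, were 10 genes that rose (XBP1, ERN1, DNAJB9, DNAJB11, DNAJC3, HERPUD1, DERL2, EDEM1, SEC24D and OS9, of which DNAJB9 and OS9 lost the knockout call with upper-quartile scaling) and 18 that fell. The share of all genes called the same way in both genotypes was not counted, so these joint counts have no background to be read against. The disulfide and lectin groups lay entirely on the falling side and the sensor and its factor on the rising side. Chaperones, degradation factors and the translocation and export group were divided.

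**Figure D1:**
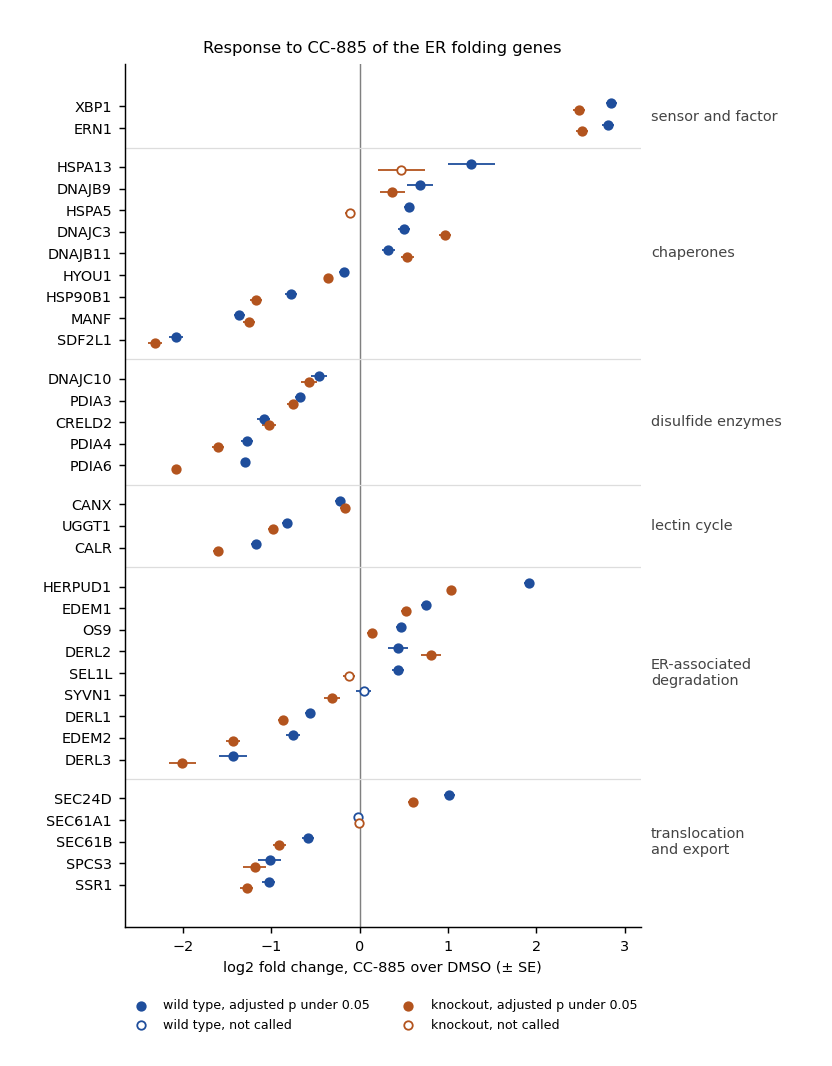
Response to CC-885 of each of the 33 ER folding genes, by role, as log2 fold change over DMSO (horizontal axis, points ± SE) in wild type (blue) and IRAK4 knockout (orange), with open points for genes not called. XBP1 and ERN1 lie between 2.48 and 2.85, every disulfide and lectin gene lies below 0 in both genotypes, and SDF2L1 is the lowest at -2.08 and -2.31.

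The sensor and its factor rose most of all 33 genes in both genotypes. XBP1 (chr22:28794555-28800597), the transcription factor of the IRE1 arm, stood at 105, 95.0 and 89.8 CPM in the untreated and 708, 698 and 682 CPM in the treated wild-type libraries. The knockout libraries held 106, 110.4 and 102 CPM untreated and 581, 591 and 607 CPM treated. Every treated library was above every DMSO library, and treated wild type was above treated knockout without overlap. The change was 2.85 ± 0.06 in wild type (adjusted p = 4.84e-15) and 2.48 ± 0.06 in knockout (adjusted p = 9.37e-15), a rise of 7.21-fold and 5.59-fold. ERN1 (chr17:64039142-64130819), which codes for the IRE1 kinase and endoribonuclease, went from 14.7, 13.8 and 16.0 CPM to 104, 106 and 103 CPM in wild type. Knockout libraries went from 19.0, 21.4 and 19.1 CPM to 115, 114 and 112 CPM. The 2 treated groups were close together, at 7.01-fold over DMSO in wild type (2.81 ± 0.07, adjusted p = 1.4e-14) and 5.74-fold in knockout (2.52 ± 0.07, adjusted p = 1.71e-14). XBP1 has a named pseudogene, XBP1P1, with which reads could be shared.

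To set levels of different genes side by side, CPM were divided by kilobases of exon, counting all exon bases of a gene in GENCODE v29. A gene with annotated exons that these cells do not use is placed too low on this scale. XBP1 was the 14th highest of the 33 genes in wild type under DMSO (47.3 ± 3.72 CPM per kb, SD, n = 3). Under CC-885 it was the highest (341 ± 6.59). In knockout it moved from the 16th (52.1 ± 2.08) to the highest mean (291 ± 6.5). CALR was highest under DMSO in both genotypes, at 643 ± 28.9 CPM per kb in wild type and 849 ± 11.5 in knockout, and came next after XBP1 under CC-885, at 285 ± 2.79 and 280.3 ± 12.8. In treated knockout XBP1 and CALR differed by less than the sum of their SDs and their libraries overlapped, so their order there is not resolved. In untreated wild type CALR was followed by HSP90B1 (274 ± 10.7), CANX (254 ± 6.07), HSPA5 (156 ± 2.44) and PDIA3 (132 ± 8.24). Each pair of neighbours in that order differed by more than the sum of their SDs. The lowest levels under DMSO in wild type were those of ERN1 (1.52 ± 0.113) and DERL3 (1.14 ± 0.0252). DERL3 shares 87.3% of its exon bases with SMARCB1, so its reads may be mixed with those of SMARCB1 or lost to it.

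**Figure D2:**
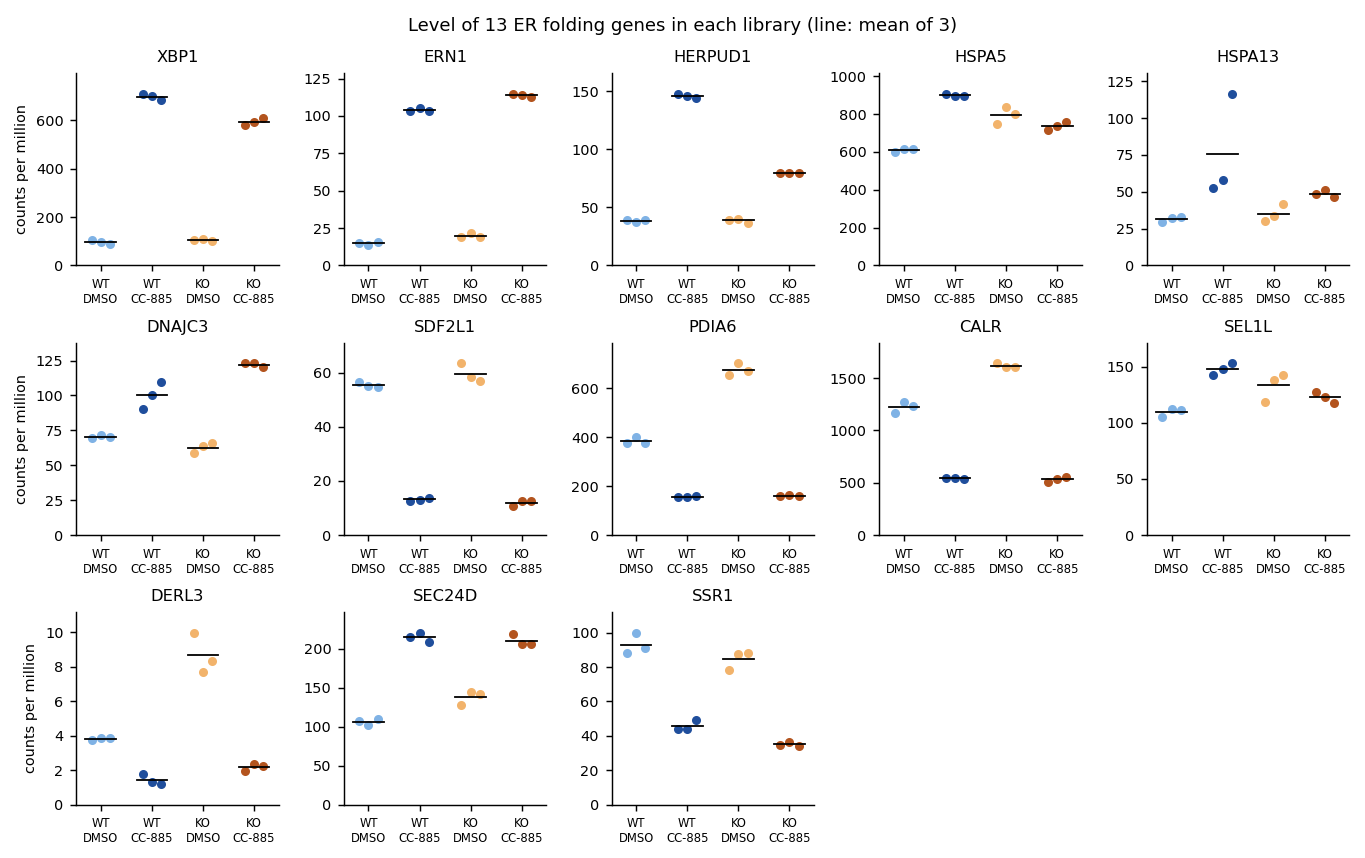
Level of 13 of the ER folding genes in every library, in CPM with TMM scaling (vertical axes, each from 0), for wild type (WT, blue) and IRAK4 knockout (KO, orange) under DMSO (light) and CC-885 (dark), with a line at the mean of 3 libraries. XBP1, ERN1 and HERPUD1 are higher in every treated library, SDF2L1, PDIA6, CALR, DERL3 and SSR1 are lower in every treated library, and 1 treated wild-type library of HSPA13 stands at 117 CPM against 52.6 and 58.0 in the others.

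Among the 9 chaperone genes, HSPA5, HSPA13 and 3 J-domain partners of BiP rose in wild type, and HSP90B1, HYOU1, SDF2L1 and MANF fell in both genotypes. In wild type 55.6% of the 9 were higher and 44.4% lower, against 35.7% and 36.6% of all genes. In knockout 33.3% were higher and 44.4% lower, against 38.9% and 40% of all genes. HSPA5 (chr9:125234853-125241330) codes for BiP, the main ER Hsp70 and a protein that binds the sensors in unstressed cells. Its level in wild type was 600.3, 618 and 615 CPM untreated and 907, 895 and 897 CPM treated. Its level in knockout was 750.1, 838 and 798 CPM untreated and 717, 735 and 756 CPM treated. Treated wild type was above all other groups, and the treated and untreated knockout libraries overlapped. The change was 0.56 ± 0.05 in wild type (adjusted p = 1.32e-07) and -0.11 ± 0.05 in knockout (adjusted p = 0.0692), which was not called, though called lower under 5 of 18 alternative settings. HSPA13 (chr21:14371115-14383484), a microsomal Hsp70-like ATPase, had levels of 29.2, 32.5 and 32.7 CPM in untreated and 52.6, 58.0 and 117 CPM in treated wild type. In knockout the levels were 30.2, 33.6 and 41.8 CPM and 48.8, 51.1 and 46.6 CPM. The highest of these values belongs to the library that stood apart. The wild-type change was 1.27 ± 0.27 (adjusted p = 0.00182), or 0.81 without that library (adjusted p = 7.36e-07), and the knockout change was 0.47 ± 0.27 (adjusted p = 0.131). That change was not called, although its groups did not overlap and 4 of 18 alternative settings called it higher.

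DNAJC3 (chr13:95677139-95794989), a J-domain protein of the ER lumen also known as p58IPK, had levels of 69.5, 71.8 and 70.0 CPM in untreated and 90.4, 101 and 109.6 CPM in treated wild type. Its untreated knockout libraries held 58.9, 63.5 and 65.6 CPM and the treated ones 123, 123 and 121 CPM. It rose in both genotypes, by 0.51 ± 0.07 in wild type (adjusted p = 4.68e-06) and by 0.96 ± 0.07 in knockout (adjusted p = 1.52e-09). The other J-domain partners of BiP also rose: DNAJB11 by 0.33 ± 0.07 and 0.54 ± 0.07, and DNAJB9 by 0.69 ± 0.15 and 0.37 ± 0.14, in wild type and knockout. The DNAJB9 call in knockout was lost under 7 of 18 alternative settings, and its wild-type value was 0.43 without the library that stood apart. In GENCODE, 15.9% of the DNAJB11 exon bases are shared with TBCCD1 on the opposite strand. On the same strand 18.8% are shared with AC068631.2, which is not among the counted symbols.

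SDF2L1 (chr22:21642261-21644298), an ER-resident partner of BiP and DNAJB11, showed the deepest fall of the 33 genes. Wild-type libraries held 56.7, 55.1 and 54.6 CPM untreated and 12.6, 13.1 and 13.8 CPM treated. Knockout libraries held 63.4, 58.4 and 56.8 CPM untreated and 10.9, 12.7 and 12.4 CPM treated. No library of one treatment reached the range of the other, and the level was 4.22-fold lower in wild type (-2.08 ± 0.08, adjusted p = 1.06e-12) and 4.97-fold lower in knockout (-2.31 ± 0.08, adjusted p = 1.51e-13). MANF, a secreted ER stress protein that binds BiP, changed by -1.36 ± 0.07 in wild type and -1.25 ± 0.06 in knockout, both called lower. HSP90B1, the ER Hsp90 also called GRP94, fell by 0.78 ± 0.07 and 1.18 ± 0.07 on the log2 scale. HYOU1, the large Hsp70-related exchange factor of BiP, fell less, by 0.18 ± 0.05 (adjusted p = 0.00657) and 0.35 ± 0.05 (adjusted p = 1.58e-05). The HYOU1 call in wild type was lost under 2 of 18 alternative settings. Summed over the 9 chaperone genes the mean level was 2098 ± 57.7 CPM in untreated and 2041 ± 70.8 CPM in treated wild type, and in knockout it was 2351 ± 113 and 1837 ± 27.9 CPM.

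All 5 disulfide enzymes fell in both genotypes, while 36.6% of all genes were lower in wild type and 40% in knockout. PDIA6 (chr2:10783391-10837977), a protein disulfide isomerase also known as P5, had untreated levels of 379, 403 and 377 CPM in wild type against 657, 703 and 670.3 CPM in knockout. The treated levels were 157, 154 and 162 CPM in wild type against 159, 164 and 159 CPM in knockout. The 2 untreated groups lay apart and the 2 treated groups overlapped. The fall was 2.45-fold in wild type (-1.29 ± 0.05, adjusted p = 3.57e-12) and 4.21-fold in knockout (-2.07 ± 0.05, adjusted p = 1.08e-14). PDIA4, another isomerase with several thioredoxin domains, changed by -1.27 ± 0.07 and -1.60 ± 0.07, and CRELD2, a secreted protein induced by ER stress, by -1.09 ± 0.08 and -1.02 ± 0.08. PDIA3, the isomerase that works with the lectin chaperones, changed by -0.67 ± 0.06 and -0.76 ± 0.06. DNAJC10, a J-domain reductase that opens disulfide bonds ahead of degradation, changed least, by -0.46 ± 0.09 and -0.57 ± 0.09. In GENCODE, 29.7% of the exon bases of PDIA6 are shared with ATP6V1C2 on the opposite strand and 16.8% of those of PDIA3 with ELL3, PDIA3 has 2 named pseudogenes, and the strand setting of the counting is not given in the sources used here.

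The lectin cycle holds nascent glycoproteins until they are folded, and its 3 genes fell in both genotypes. Of all genes, 36.6% were lower in wild type and 40% in knockout. CALR (chr19:12938578-12944489), which codes for the soluble lectin chaperone calreticulin, went in wild type from 1165, 1273 and 1234 CPM to 547, 544 and 537 CPM. The knockout libraries went from 1641, 1602 and 1604 CPM to 509, 533 and 558 CPM. The treated groups overlapped and lay far below both untreated groups. The fall was 2.26-fold in wild type (-1.17 ± 0.06, adjusted p = 2.21e-11) and 3.03-fold in knockout (-1.60 ± 0.06, adjusted p = 3.09e-13). UGGT1, the enzyme that tags unfolded glycoproteins for another round, changed by -0.82 ± 0.06 and -0.98 ± 0.06. CANX, the membrane-bound lectin calnexin, changed little, by -0.22 ± 0.06 (adjusted p = 0.00271) and -0.17 ± 0.06 (adjusted p = 0.0142), and the knockout call was lost under 2 of 18 alternative settings.

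Genes of ER-associated degradation went both ways, with 5 of 9 higher and 3 lower in wild type and 4 higher and 4 lower in knockout. The shares called lower in wild type (33.3%) and called either way in knockout (44.4% each) lay near those of all genes (36.6%, and 38.9% higher and 40% lower), and 55.6% were higher in wild type, against 35.7%. HERPUD1 (chr16:56932048-56944863), a membrane protein that organises the HRD1 ubiquitin ligase complex, had untreated levels of 39.6, 37.5 and 39.2 CPM in wild type against 39.4, 40.5 and 36.7 CPM in knockout. Treated levels were 148, 146 and 144 CPM in wild type against 79.8, 80.0 and 79.6 CPM in knockout. The untreated groups overlapped, and the treated wild-type libraries were all above the treated knockout libraries. It rose 3.77-fold in wild type (1.91 ± 0.06, adjusted p = 8.13e-14) and 2.05-fold in knockout (1.04 ± 0.06, adjusted p = 4.33e-11). SEL1L (chr14:81471549-81533861), the adaptor that couples substrates to HRD1, was at 105, 113 and 111 CPM in untreated and 142, 148 and 153 CPM in treated wild type. Untreated knockout held 119, 138 and 143 CPM and treated knockout 127, 123 and 118 CPM. It was called higher in wild type (0.43 ± 0.07, adjusted p = 2.97e-05) and was not called in knockout (-0.12 ± 0.07, adjusted p = 0.119), where the groups overlapped, although 4 of 18 alternative settings called it lower. SYVN1, the HRD1 ligase itself, stood at 0.04 ± 0.09 in wild type (adjusted p = 0.668) and -0.31 ± 0.09 in knockout (adjusted p = 0.00459), called lower in knockout. In wild type 2 of 18 alternative settings called it higher, among them the 1 without the library that stood apart (0.16, adjusted p = 0.0406).

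The genes that recognise and trim glycoproteins for disposal went in both directions. EDEM1, which hands misfolded glycoproteins to the degradation route, rose by 0.76 ± 0.06 and 0.52 ± 0.06, whereas EDEM2, the mannosidase that starts the trimming, changed by -0.75 ± 0.08 and -1.43 ± 0.08, both called lower. OS9, a lectin that reads the trimmed glycan, rose by 0.47 ± 0.06 in wild type and by 0.14 ± 0.06 in knockout (adjusted p = 0.0337), where upper-quartile scaling turned the sign to -0.011. The OS9 call in knockout was lost under 9 of 18 alternative settings. In GENCODE, 24.4% of its exon bases are shared with an antisense transcript that is not among the counted symbols. The 3 derlins, membrane proteins of the export channel, also differed. DERL2 rose by 0.43 ± 0.11 and 0.81 ± 0.11, and DERL1 changed by -0.56 ± 0.05 and -0.87 ± 0.05, both called lower. The DERL2 value in wild type was 0.24 without the library that stood apart, and its call there was lost under 1 of 18 alternative settings. DERL3 (chr22:23834503-23839128) was at 3.72, 3.85 and 3.88 CPM in untreated and 1.77, 1.28 and 1.17 CPM in treated wild type. The knockout values were 9.97, 7.71 and 8.32 CPM and 1.92, 2.34 and 2.23 CPM. Its 4 groups did not overlap, and it fell 2.70-fold in wild type (-1.44 ± 0.16, adjusted p = 5.92e-07) and 4.01-fold in knockout (-2.00 ± 0.15, adjusted p = 2.69e-09). In GENCODE, 87.3% of the DERL3 exon bases are shared with SMARCB1 on the opposite strand, so reads of DERL3 may be mixed with those of SMARCB1 or lost to it.

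In translocation and export, only the coat gene rose. Of the 5 genes, 20% were higher and 60% lower in each genotype. The shares of all genes were 35.7% and 36.6% in wild type and 38.9% and 40% in knockout. SEC24D (chr4:118722823-118838683), which selects cargo for COPII vesicles, was at 107, 102 and 109.5 CPM in untreated and 215, 220.1 and 209 CPM in treated wild type. Its knockout values were 128, 145 and 142 CPM and 218, 206 and 206 CPM. Every treated library was above every untreated one, by 1.02 ± 0.06 in wild type (adjusted p = 2.21e-10) and 0.61 ± 0.06 in knockout (adjusted p = 7.88e-08). SSR1 (chr6:7268306-7347446), a subunit of the translocon-associated complex, was at 88.3, 99.9 and 90.8 CPM in untreated and 43.7, 44.0 and 49.0 CPM in treated wild type. The corresponding knockout values were 78.0, 87.9 and 88.1 CPM and 34.6, 36.2 and 34.0 CPM. It fell 2.04-fold in wild type (-1.03 ± 0.07, adjusted p = 1.99e-09) and 2.42-fold in knockout (-1.28 ± 0.07, adjusted p = 9.17e-11), with 2 named pseudogenes that may share its reads. SPCS3, a subunit of the signal peptidase, changed by -1.02 ± 0.13 and -1.19 ± 0.13, and SEC61B, the small beta subunit of the channel, by -0.59 ± 0.07 and -0.91 ± 0.07, all called lower. SEC61A1, the channel's pore, stood at -0.01 ± 0.05 (adjusted p = 0.816) and -0.01 ± 0.05 (adjusted p = 0.919), with overlapping groups in both genotypes, although upper-quartile scaling called it lower in knockout.

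Summed over each role, levels show how these changes added up, and no test was run on the sums. All 33 genes together made up 7742 ± 206 CPM in untreated wild type (SD, n = 3), 7318 ± 89.1 CPM in treated wild type, 9103 ± 258 CPM in untreated knockout and 6930.0 ± 65.3 CPM in treated knockout. The disulfide enzymes went from 1202 ± 58.3 to 626 ± 24.7 CPM in wild type and from 1724 ± 57.4 to 705 ± 16.6 CPM in knockout. The lectin cycle went from 2538 ± 75.1 to 1615 ± 24.8 CPM and from 2884 ± 63.8 to 1577 ± 15.3 CPM. The ER-associated degradation sum moved the other way. It went from 998 ± 26.8 to 1466 ± 32.8 CPM in wild type and from 1257 ± 17.3 to 1404 ± 11.7 CPM in knockout. EDEM1 alone went from 402.8 ± 21.8 to 680.4 ± 15.2 CPM in wild type and from 423 ± 11.1 to 608 ± 19.2 CPM in knockout. In knockout EDEM1 rose by more than the sum did, and as many of these genes were called lower as higher. ERN1 and XBP1 together went from 111 ± 7.18 to 800.2 ± 13.7 CPM and from 126 ± 5.48 to 707 ± 12.1 CPM. Translocation and export went from 795 ± 16.6 to 770 ± 9.31 CPM and from 762 ± 19.8 to 701 ± 2.82 CPM.

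**Figure D3:**
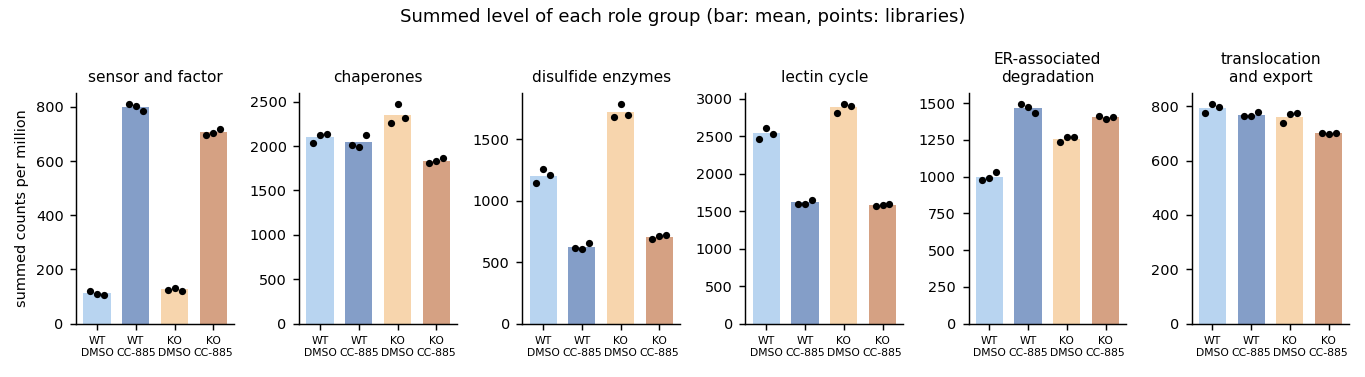
Summed level of each role group of the ER folding genes in CPM (vertical axes, each from 0), with bars at the mean and points for the 3 libraries of wild type (WT) and IRAK4 knockout (KO) under DMSO or CC-885. Disulfide enzymes and the lectin cycle are highest in untreated knockout, at 1724 and 2884 CPM, and lowest under CC-885, while the sensor and its factor rise from 111 and 126 CPM to 800.2 and 707 CPM.

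Without CC-885, the knockout carried more of these transcripts than the wild type. Under DMSO 17 of 33 genes (51.5%) were higher in knockout and 3 (9.09%) lower, against 21.3% and 28.4% of all genes tested, and the median was 0.26 against -0.058 for all genes. The knockout and the clone cannot be told apart here. The summed monocytic markers were also higher in untreated knockout (7297 to 8718 CPM against 4594 to 4712 CPM), and their part in this difference was not tested. The disulfide, lectin and chaperone groups all held called members. PDIA6 was 0.81 ± 0.05 (1.75-fold, adjusted p = 3.89e-09), CRELD2 0.56 ± 0.08, PDIA4 0.55 ± 0.07 and PDIA3 0.27 ± 0.06, all called higher. In the lectin cycle CALR was 0.40 ± 0.06 (adjusted p = 2.09e-05) and UGGT1 0.26 ± 0.06, both called higher, while CANX was -0.11 ± 0.06 and not called. Of the chaperones, HYOU1 (0.42 ± 0.05), HSPA5 (0.38 ± 0.05), MANF (0.33 ± 0.06) and DNAJB11 (0.32 ± 0.07) were higher.

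The largest differences under DMSO lay in degradation. EDEM2 was 1.20 ± 0.08 (2.30-fold, adjusted p = 4.45e-09) and DERL3 1.18 ± 0.14 (2.27-fold, adjusted p = 4.1e-06), the only members at least 2-fold higher. EDEM2 was at 31.6, 28.7 and 28.8 CPM in untreated wild type and 72.3, 69.4 and 63.2 CPM in untreated knockout. OS9 (0.72 ± 0.06), SYVN1 (0.58 ± 0.09) and SEL1L (0.28 ± 0.07) were higher as well, and HERPUD1 (0.00 ± 0.06), EDEM1 (0.07 ± 0.06), DERL1 (-0.05 ± 0.05) and DERL2 (-0.17 ± 0.11) were not called. In export SEC24D was 0.38 ± 0.06 and called higher. ERN1 was 0.41 ± 0.07 (adjusted p = 0.000121) and XBP1 0.14 ± 0.06 (adjusted p = 0.0731), which was not called. The genes called lower in knockout were SPCS3 (-0.44 ± 0.13, adjusted p = 0.011), HSP90B1 (-0.20 ± 0.07, adjusted p = 0.022) and DNAJC3 (-0.17 ± 0.07, adjusted p = 0.0491). Those calls were lost under 2, 10 and 16 of 18 alternative settings. Not called either were HSPA13 (0.16 ± 0.27), DNAJB9 (0.14 ± 0.15), SDF2L1 (0.10 ± 0.07), DNAJC10 (0.21 ± 0.09, adjusted p = 0.0541), SEC61A1 (-0.10 ± 0.05), SEC61B (0.07 ± 0.07) and SSR1 (-0.14 ± 0.07). Alternative settings called DNAJC10 higher in 12 of 18 cases, XBP1 in 7, SDF2L1 in 2, and EDEM1 and SEC61B in 1 each, so DNAJC10 and XBP1 lay close to the threshold.

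**Figure D4:**
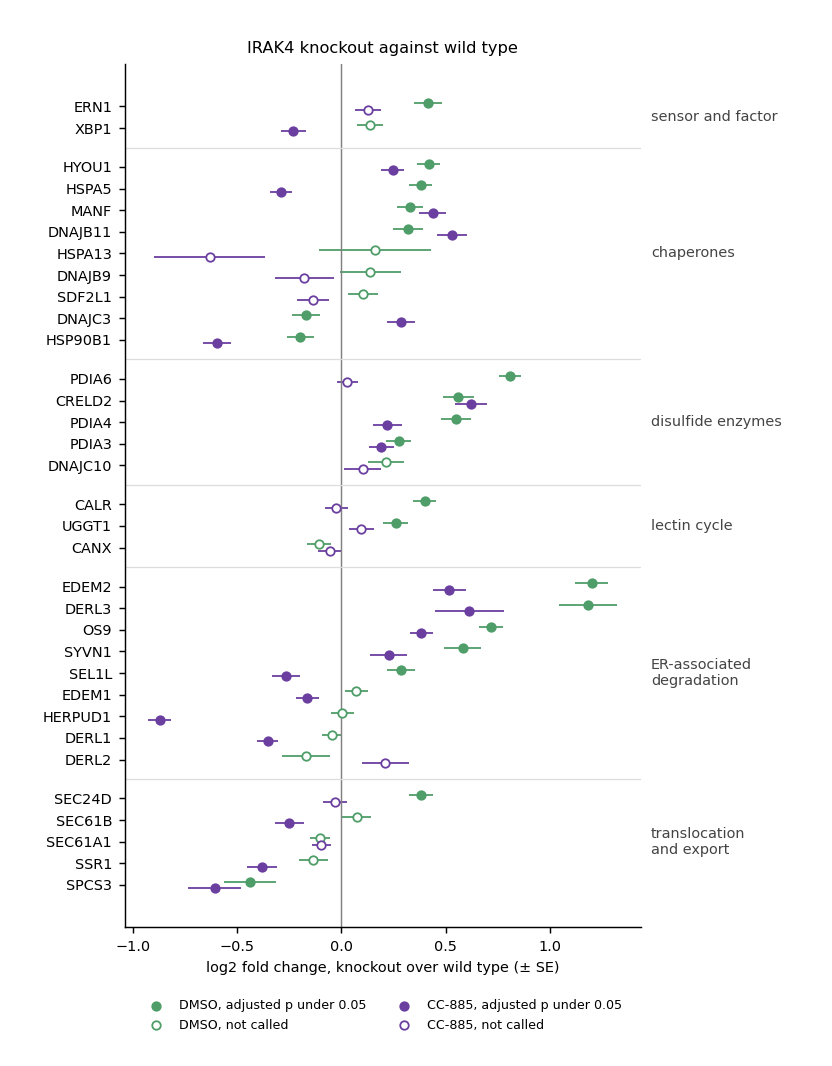
Difference between IRAK4 knockout and wild type in each of the 33 ER folding genes, by role, as log2 fold change (horizontal axis, points ± SE) under DMSO (green) and under CC-885 (purple), with open points for genes not called. Under DMSO 17 genes are called to the right and 3 to the left, under CC-885 11 and 10, and HERPUD1 is the lowest under CC-885 at -0.87.

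Under CC-885 the calls were about even. There 11 of 33 genes (33.3%) were higher in knockout and 10 (30.3%) lower, shares near those of all genes (27.8% and 30.8%). The median was -0.025, against -0.016 for all genes, and between -0.053 and 0.048 over the alternative settings. How many of all genes kept or turned their call between the treatments was not counted. The genes that stayed higher in knockout under both treatments were HYOU1, DNAJB11, MANF, PDIA3, PDIA4, CRELD2, SYVN1, DERL3, EDEM2 and OS9. Under CC-885 their differences ran from 0.19 ± 0.06 for PDIA3 and 0.22 ± 0.07 for PDIA4 to 0.62 ± 0.08 for CRELD2. Of these, the calls of SYVN1 (0.23 ± 0.09) and PDIA4 were lost under 9 and 5 of 18 alternative settings. HERPUD1 showed the largest difference, at -0.87 ± 0.05 (1.83-fold lower in knockout, adjusted p = 2.28e-09). SPCS3 (-0.61 ± 0.13), HSP90B1 (-0.59 ± 0.07), SSR1 (-0.38 ± 0.07), DERL1 (-0.35 ± 0.05), SEC61B (-0.25 ± 0.07), XBP1 (-0.23 ± 0.06) and EDEM1 (-0.16 ± 0.06) were also lower, and the EDEM1 call was lost under 6 of 18 alternative settings. PDIA6 (0.03 ± 0.05), CALR (-0.03 ± 0.06), UGGT1 (0.10 ± 0.06), SEC24D (-0.03 ± 0.06) and ERN1 (0.13 ± 0.06), all higher in knockout under DMSO, were not called.

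In HSPA5, SEL1L and DNAJC3 the difference between genotypes was called in opposite directions under the 2 treatments. HSPA5 was higher in knockout under DMSO (0.38 ± 0.05) and lower under CC-885 (-0.29 ± 0.05, adjusted p = 0.000277), and SEL1L likewise (0.28 ± 0.07 and -0.27 ± 0.07, adjusted p = 0.00325). DNAJC3 was -0.17 ± 0.07 under DMSO, a call that most alternative settings did not keep, and 0.29 ± 0.07 under CC-885 (adjusted p = 0.00177). The remaining genes not called under CC-885 were HSPA13 (-0.63 ± 0.27), SDF2L1 (-0.13 ± 0.08), DNAJB9 (-0.18 ± 0.14), DNAJC10 (0.10 ± 0.09), CANX (-0.06 ± 0.06), DERL2 (0.21 ± 0.11) and SEC61A1 (-0.10 ± 0.05). DERL2 was 0.40 and called higher (adjusted p = 0.000187) without the wild-type library that stood apart, and HSPA13 was -0.18 (adjusted p = 0.131). DNAJB9 turned from -0.18 to 0.079 without it and was called in neither case (adjusted p = 0.465 without it). Among the genes not called, DERL2 and HSPA13 were called under 4 of 18 alternative settings each, ERN1 under 3, DNAJC10 under 2, and UGGT1 and SEC61A1 under 1 each.

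The difference between the 2 responses was tested as an interaction, the response in knockout minus that in wild type. It was called lower in 16 of 33 genes (48.5%) and higher in 1 (3.03%), against 16.8% and 17.9% of all genes, with a median of -0.31 against -0.0091. HERPUD1 (-0.88 ± 0.08, adjusted p = 1.55e-06), XBP1 (-0.37 ± 0.09), ERN1 (-0.29 ± 0.09), SEC24D (-0.41 ± 0.08), EDEM1 (-0.23 ± 0.08) and OS9 (-0.33 ± 0.08) rose less in knockout than in wild type. PDIA6 (-0.78 ± 0.07, adjusted p = 2.29e-06), EDEM2 (-0.68 ± 0.11), CALR (-0.43 ± 0.08), HSP90B1 (-0.40 ± 0.09), PDIA4 (-0.33 ± 0.10), SEC61B (-0.32 ± 0.10) and DERL1 (-0.31 ± 0.07) fell further in knockout. HSPA5 (-0.67 ± 0.08, adjusted p = 1.27e-05) and SEL1L (-0.55 ± 0.10) rose in wild type without a called change in knockout, and SYVN1 (-0.35 ± 0.13) fell in knockout without a called change in wild type. Of these calls, those of EDEM1, SYVN1, ERN1, SEC61B and PDIA4 were lost under 9, 8, 5, 3 and 1 of 23 alternative settings. These are differences of log2 changes, so they depend on the untreated levels as well. PDIA6, CALR, SEC24D and ERN1 were higher in knockout under DMSO and not called between genotypes under CC-885. PDIA4, SYVN1, EDEM2 and OS9 were higher in knockout under both treatments. The rest of the genes with a lower interaction were lower in knockout than in wild type under CC-885. DNAJC3 alone was called higher, at 0.46 ± 0.10 (adjusted p = 0.0017). Without wild-type CC-885 replicate 3, the counts were 17 lower and 3 higher, with DNAJB11 (0.30) and DERL2 (0.57) added to the higher side. Genes not called as reported but called under some of the 23 alternative settings were DERL3 (8), SSR1 (6), HYOU1 (4), SDF2L1, UGGT1 and DERL2 (3 each), and DNAJB11 and HSPA13 (1 each). The interaction shares all of its libraries with the comparisons above and is not independent of them.

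The counts of the wider pathway are to be read against the shares of all genes under CC-885, 35.7% higher and 36.6% lower in wild type and 38.9% and 40% in knockout. The PERK and ATF4 branch, 14 genes, rose almost throughout: 13 were higher and 1 lower in each genotype, with a median of 3.52 in wild type and 2.75 in knockout. The largest called changes were those of ATF3 (8.43 ± 0.09 and 8.38 ± 0.09), a stress-induced transcription factor, CHAC1 (5.76 ± 0.16 and 2.57 ± 0.14), which degrades glutathione, and PPP1R15A (4.81 ± 0.07 and 5.64 ± 0.07), which brings a phosphatase to eIF2 alpha. The gene that fell was ERO1L (-0.78 ± 0.08 and -1.07 ± 0.08), the oxidase that recharges disulfide isomerases, which was singled out after its values were seen. CHAC1 differed between the genotypes under CC-885, at -2.27 ± 0.12, and by -3.19 ± 0.22 as an interaction. ATF4 also responds to stresses outside the ER, and which input acted was not tested. Among 14 other sensors and factors, 7 were higher and 3 lower in wild type (50% and 21.4%) and 7 higher and 5 lower in knockout (50% and 35.7%), among them ATF6 (1.35 ± 0.08 and 1.58 ± 0.08), the PERK gene EIF2AK3 (1.08 ± 0.08 and 0.31 ± 0.08) and NFYC (1.09 ± 0.06 and 1.37 ± 0.06), a subunit of the CCAAT-binding factor.

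Like the lectin cycle, N-glycosylation mostly fell: 10 of 12 genes were lower and 1 higher in wild type, and 9 lower and 2 higher in knockout. Named by the size of their change were GANAB (-0.58 ± 0.07 and -1.24 ± 0.07), a glucosidase that admits glycoproteins to the lectin cycle, and the oligosaccharyltransferase subunits STT3A (-1.17 ± 0.07 and -1.24 ± 0.07) and RPN2 (-0.59 ± 0.06 and -1.23 ± 0.06). Other folding enzymes were 6 higher and 10 lower of 20 in wild type (30% and 50%) and 7 and 11 in knockout (35% and 55%). They included DNAJC1 (1.51 ± 0.07 and 2.22 ± 0.07), a J-domain membrane protein, PDIA5 (-1.11 ± 0.08 and -1.71 ± 0.08), an isomerase, and PRDX4 (-1.23 ± 0.19 and -1.88 ± 0.19), an ER peroxiredoxin. Other degradation genes were 7 higher and 10 lower of 21 in wild type (33.3% and 47.6%) and 8 and 10 in knockout (38.1% and 47.6%), shares not far from those of all genes, with ERLIN1 (-1.24 ± 0.05 and -1.76 ± 0.05) and ERLIN2 (-1.11 ± 0.06 and -1.75 ± 0.06), which clear the IP3 receptor, against FAF2 (1.14 ± 0.06 and 1.52 ± 0.06), which recruits the p97 ATPase. Other translocation genes were 2 higher and 9 lower of 16 in wild type (12.5% and 56.2%) and 6 and 8 in knockout (37.5% and 50%), where the count of 6 was 3 without knockout replicate 1 of either treatment. SSR2 (-0.35 ± 0.07 and -1.16 ± 0.07), the partner of SSR1, and TRAM1 (-0.83 ± 0.11 and -1.16 ± 0.11) fell, and SRP54 (0.98 ± 0.06 and 1.16 ± 0.06), of the signal recognition particle, rose. Other genes of export and retrieval were 10 higher and 10 lower of 21 in wild type (47.6% each) and 10 and 11 in knockout (47.6% and 52.4%), with SEC24A (1.61 ± 0.06 and 2.15 ± 0.06), SEC24B (1.36 ± 0.06 and 1.86 ± 0.06) and ARF4 (1.10 ± 0.07 and 1.45 ± 0.07) rising together with SEC24D.

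**Figure D5:**
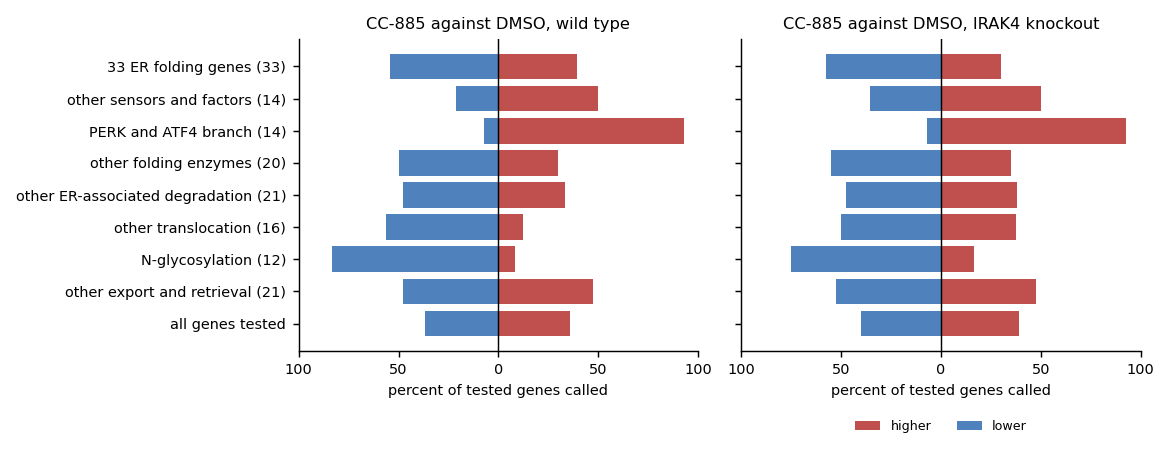
Percent of each list called higher (red, to the right of 0) or lower (blue, to the left) under CC-885 in wild type and in IRAK4 knockout, for the ER folding genes, 7 other lists of the pathway and all genes tested, with the number of genes in brackets. The PERK and ATF4 branch stands almost wholly to the right at 92.9% in both genotypes, and N-glycosylation stands mostly to the left at 83.3% and 75%.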

How the data were processed

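For 12 THP-1 libraries the authors deposited whole-number counts of reads by gene symbol, not normalized. The submitters' processing notes list featureCounts 1.5.2, HISAT2 2.0.5, FastQC 0.11.2 and the build GRCh38, whereas the labels' extraction protocol names a mouse build. The symbols are human. How strand, multiple matches and read pairs were handled is not given in the sources used here, so overlapping genes and pseudogenes add an uncertainty that the errors do not hold.

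Genes were kept by filterByExpr by group (minimum count 10) and scaled by TMM, which centres changes on the bulk of genes. A robust quasi-likelihood model (edgeR 4.0.16, R 4.3.3) with 1 coefficient per group was fitted to all 12 libraries and 5 contrasts were tested, with Benjamini-Hochberg adjustment over 16010 genes. The procedure was tested on simulated data in which few genes changed and all shared the same spread. That check does not cover changes as widespread as those under CC-885. Alternatives were other scalings, filters and tests (DESeq2 1.42.0 among them), replicate blocks, the library-name prefix, and leaving out each library. Same-numbered libraries were compared for shared deviations and were not treated as pairs. Promoter letters came from RefSeq (GRCh38.p14), and exon lengths and overlaps from GENCODE v29.

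The 33 genes, their roles and the other lists, including the marker lists of monocytic, T and NK, B and plasma, erythroid, and epithelial, stromal and endothelial cells, were chosen with earlier results of these data known. Every ER folding gene is named. Values per library are given for HSPA5, XBP1 and ERN1, for the largest called rise and fall of each role under CC-885, and for genes called in opposite directions in comparisons without shared libraries. Outside that rule, EDEM2 is given per library under DMSO, where its difference between genotypes was the largest. From each other list up to 3 genes with the largest called change are named. In the prefix check, 11 of 12 libraries lay closest to libraries of their own prefix.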

Additional observations from a re-analysis of the deposited data

Results flagged for a closer look

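For 17 of the 33 ER folding genes the response to CC-885 differed between the genotypes by the interaction test (edgeR, adjusted p under 0.05). Of the 33 genes 48.5% were called lower and 3.03% higher, against 16.8% and 17.9% of all genes tested. Each value here is the log2 response in knockout minus that in wild type, and it depends on the untreated levels as well. In ER-associated degradation the values were -0.88 for HERPUD1, -0.68 for EDEM2, -0.55 for SEL1L, -0.35 for SYVN1, -0.33 for OS9, -0.31 for DERL1 and -0.23 for EDEM1. Among disulfide enzymes and the lectin cycle they were -0.78 for PDIA6, -0.33 for PDIA4 and -0.43 for CALR. Among chaperones they were -0.67 for HSPA5, -0.40 for HSP90B1 and 0.46 for DNAJC3. In translocation and export they were -0.41 for SEC24D and -0.32 for SEC61B, and for the factor and the sensor -0.37 for XBP1 and -0.29 for ERN1. The genotypes also differed in the summed monocytic markers under DMSO, and a part of marker level in these values was not tested, while knockout and clone cannot be told apart. With the library-name prefix as a covariate all 17 calls were kept. Prefix 52 marks wild-type DMSO replicates 2 and 3, wild-type CC-885 replicate 3, knockout DMSO replicate 3 and no treated knockout library. The covariate is thus tied in part to the groups. The 51-prefix libraries alone leave only wild-type DMSO replicate 1 in its group, so calls from that fit are not given here.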

How the results depend on the processing

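Of 3135 values of single ER folding genes under the alternatives, 2957 stayed on their side of the threshold, 94 lost a call, 83 gained one and 1 reversed, which was OS9 in knockout at -0.011 with upper-quartile factors (adjusted p = 0.871). Of the 2957, 37 took the other sign and were called neither as reported nor there. With upper-quartile factors the median over all genes shifted by -0.148 for CC-885 in knockout and by 0.122 for knockout against wild type under DMSO, and the members' medians moved with it. The median of the members for CC-885 in wild type was -0.29 with upper-quartile factors and -0.28 with library size alone. In knockout it was -0.50 with upper-quartile factors, -0.45 with library size alone and -0.41 with no filter beyond 1 count. For knockout against wild type under DMSO it was 0.38 with upper-quartile factors, 0.31 with library size alone, 0.31 with no filter and 0.32 with only the groups compared. Under CC-885 it was 0.020 with upper-quartile factors, -0.053 with no filter, 0.044 in the 51-prefix libraries alone, and from -0.019 to 0.048 with 1 library left out, the highest without wild-type CC-885 replicate 3. For the interaction it was -0.39 with upper-quartile factors, -0.39 with no filter, and from -0.32 to -0.24 with 1 library left out, the highest again without wild-type CC-885 replicate 3. The count of members lower in knockout under DMSO was 3 as reported. It was 1 with upper-quartile factors, library size alone, no filter, only the groups compared and the replicate block by library-name number. With 1 library left out it was from 0 to 2. It was 0 without wild-type DMSO replicate 2 and without knockout DMSO replicate 1. The count of members with a higher interaction, 1 as reported, was 2 with the prefix as a covariate. With 1 library left out it was from 1 to 3, the 3 being without wild-type CC-885 replicate 3. With upper-quartile factors the calls split into 8 higher and 22 lower for CC-885 in knockout and 22 higher and 1 lower for knockout under DMSO, where 95.7% of calls were then higher against 85% as reported.

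Libraries that share a replicate number did not deviate together: of 18 such pairs by title number, 2 had a correlation over 0.1 (range -0.034 to 0.23), and 6 of 12 libraries lay closest to their own number. With the replicate block by title number, 13 members were higher and 18 lower for CC-885 in wild type, and 10 and 19 in knockout. By library-name number these were 13 and 17, and 10 and 18. Depth was at least 46903984 counts per library, and DERL3, at 1.17 to 9.97 CPM, was the member with the fewest counts.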
